A study of Nicotiana tabacum with 8 samples.

Results

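The effect of *NtCBL5A* overexpression in salt-stressed tobacco leaves was read from the comparison S-OE2/S-WT, which takes 4 of the 8 leaf libraries of the study. S-OE2 is the overexpressing line OE-2 (libraries S-OE2-1 and S-OE2-2) and S-WT is the wild-type cultivar Zhongyan 100 (S-WT-1 and S-WT-2), both sampled 4 days after the start of a NaCl treatment that was raised in steps to 100 mM in the nutrient solution. The members were assigned by their sample names, with earlier results of these data known. The final digit gives the independent growth experiment, so that each S-OE2 library has a S-WT library grown beside it. The remaining 4 libraries, C-OE2 and C-WT, are the same genotypes without added NaCl. They show the level of each gene in unstressed leaves. They also enter the fit behind the p-values of S-OE2/S-WT, and some calls depend on them.

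OE-2 is a single transgenic line in the second selfed generation, selected as fully kanamycin-resistant, and carries the *NtCBL5A* coding sequence in the vector pCHF3 for constitutive expression. None of the libraries analysed here comes from an empty-vector line, so the transgene, its insertion site and the history of this line cannot be told apart. Each library holds RNA pooled from the fifth leaf blades of 4 plants, about 34 days after germination, with the main veins removed. With 2 libraries per group, an exact two-sided permutation test of a single gene that ignores the experiments cannot give a p below 33.3%. A permutation within the experiments has fewer arrangements and a higher limit. The p-values below come from a model fitted over all genes.

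Calcineurin B-like (CBL) proteins are calcium sensors of plants. They bind calcium and recruit CBL-interacting protein kinases to membranes, where several of these pairs regulate ion transporters, among them the Na+/H+ antiporter of the SOS pathway. Pathogenesis-related (PR) proteins are secreted or vacuolar proteins that accumulate in tobacco leaves during defense and salicylic acid responses, and the photosystems with their antennae are encoded by some of the most abundant mRNAs of a green leaf. The question of the comparison is which of these and other transcripts differ between leaves with and without the overexpression once NaCl is present. No identifier of the count table could be tied to *NtCBL5A*, so its own level was not analysed here.

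The total count on genes was 29610081 and 23927369 in S-OE2, against 26682943 and 22600749 in S-WT, within a range of 18674594 to 31672013 over all 8 libraries. In S-OE2, 52599 and 52670 genes had at least 1 count, against 50333 and 50361 genes in S-WT. The 12 photosynthesis genes described further on, which are leaf transcripts, ranked between 5 and 1925 of 81378 genes by FPKM in the 4 salt libraries. The chi-square of the counts over genes, per degree of freedom, was 59.2 between the S-OE2 libraries and 90.5 between the S-WT libraries, where counting noise alone gives values near unity. The libraries of a group come from different experiments, so these values include the difference between the experiments. The biological coefficient of variation was 24.2% in the fit with the experiment as a term, so it measures a different spread.

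Under NaCl, 1860 genes were higher in S-OE2 and 1428 were lower than in S-WT, which is 4.17% and 3.2% of the 44564 genes tested (edgeR quasi-likelihood test, adjusted p under 0.05, experiment as a term). Among the called genes, those that rose did so by larger factors than those that fell. Their abundance differed too, with median mean CPM over the 8 libraries of 3.84 for the higher and 29.9 for the lower genes. The part of the calling threshold in this difference was not tested. The higher genes had a median log2 fold change of 2.70, with an interquartile range of 1.64 to 4.14, and 507 of them (27.3%) exceeded 4 on the log2 scale. The lower genes had a median of -1.28, with an interquartile range of -1.73 to -1.01, and 41 of them (2.87%) passed the same size. The genes that rose had a median of 9.27 CPM in S-OE2 and 1.65 CPM in S-WT, whereas the genes that fell had a median of 14.3 CPM in S-OE2 and 32.1 CPM in S-WT. Over all genes tested the median log2 fold change was 0.0077.

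The share of calls that were higher was 56.6% with TMM scaling and 81.3% with total-count scaling (3108 higher, 717 lower), which shifted the median over all genes to 0.30 (log2). Without the experiment as a term, 2 genes were higher and 3 were lower at the same threshold, while 5607 genes had an unadjusted p under 0.05, against 9601 with the term.

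**Figure D1:**
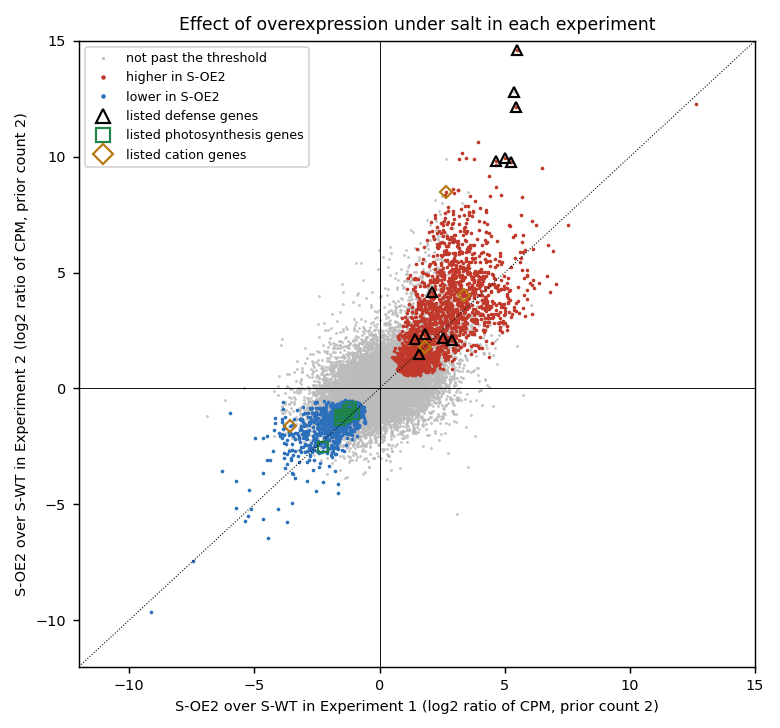
Log2 ratio of CPM (prior count 2) of S-OE2 over S-WT for each tested gene, in Experiment 1 on the horizontal and in Experiment 2 on the vertical axis. Red and blue points are the 1860 higher and 1428 lower genes, open symbols are the listed genes and the dotted line marks equal ratios; 6 of the listed defense genes stand far above the line.

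Both experiments gave the called genes the same direction, which follows in part from calling them on these libraries. The sizes differed between the experiments. The median log2 ratio of the higher genes was 2.30 in Experiment 1 and 2.80 in Experiment 2, and that of the lower genes was -1.41 and -1.10. For 314 of the higher genes the ratios of the experiments differed by more than 2 on the log2 scale, and 286 of these had the larger ratio in Experiment 2. The wild-type libraries differed most here. S-WT-1 was more than 2 log2 units above S-WT-2 for 447 of the 1860 higher genes (24.0%), against 3.82% of all genes tested, and the reverse held for 5 of them. S-OE2-1 was above S-OE2-2 by this margin for 55 of them (2.96%). Both S-OE2 libraries lay above both S-WT libraries for 1814 of the higher genes (97.5%, against 22.0% of all genes), and both lay below for 1265 of the lower genes (88.6%, against 19.8%). This separation, like the direction, follows in part from calling the genes on these libraries. Leaving out S-WT-1 gave 1171 higher and 456 lower genes, and leaving out S-WT-2, S-OE2-1 or S-OE2-2 gave 875, 805 or 1148 higher and 743, 296 or 931 lower genes.

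The changed genes held a large part of the leaf mRNA. The 1860 higher genes took 11.8% and 8.35% of all counts in S-OE2, against 1.94% and 1.34% in S-WT, 1.72% and 1.58% in C-OE2 and 1.26% and 1.39% in C-WT. The 1428 lower genes took 18.3% and 16.2% in S-OE2, against 39.1% and 29.1% in S-WT, 44.8% and 34.1% in C-OE2 and 46.5% and 35.9% in C-WT. For both sets of genes the 2 S-OE2 libraries thus stood apart from the other 6. The genes were selected for this contrast in the salt libraries, so the S-OE2 and S-WT shares are a description of its size.

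**Figure D2:**
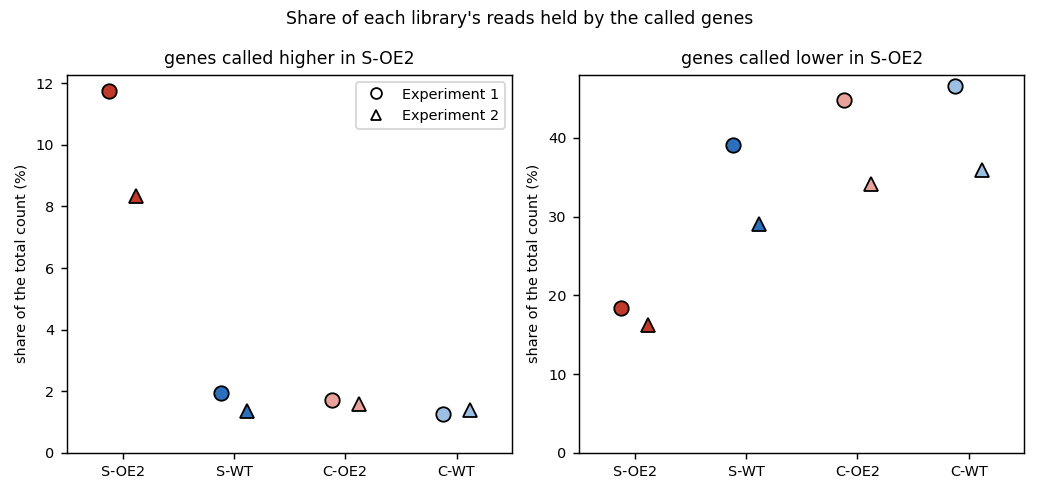
Share of the total count of each library (%, from 0) taken by the genes called higher (left panel) or lower (right panel) in S-OE2, relative to S-WT. Circles are Experiment 1 and triangles Experiment 2; S-OE2 reached 11.8% and 8.35% for the higher genes and no other library passed 1.94%.

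The share of genes called lower was highest among the most abundant transcripts. Genes were ranked by mean CPM over the 8 libraries. Of the 100 highest, 75 were lower and 3 were higher in S-OE2, against 3.2% and 4.17% of all genes tested, and their median log2 fold change was -1.30. The share of lower genes was 33.6% for ranks 101 to 1000, 3.76% for ranks 5001 to 10000 and 0.748% for ranks 30001 to 44564, whereas the share of higher genes stayed between 3 and 5.06% in every range. With total-count scaling 61 of the 100 were lower, and the number with a library left out ranged between 46, without S-WT-1, and 77.

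Ranked by FPKM, the deposited measure that corrects for gene length, the top of the list was reordered as well. Of the 20 most abundant transcripts, S-OE2-1 and S-OE2-2 had 8 and 5 that were called higher, against 1 in S-WT-1 and 0 in S-WT-2, where 4.17% of all genes were called higher. Another 7 and 9 of the 20 in S-OE2 were called lower, against 17 and 14 of the 20 in S-WT. Each list was ranked in a library that also entered the calls, so these counts follow in part from that selection. The S-OE2 and S-WT libraries of the same experiment shared 9 of their 20 in Experiment 1 and 14 in Experiment 2, and the C-OE2 and C-WT libraries shared 18 and 19. *PR1a* ranked first in both S-OE2 libraries, with 21100 and 13986 FPKM, against rank 366 in S-WT-1 and rank 32103 in S-WT-2. The transcript that ranked first in each of the other 6 libraries, a gene from the authors' own transcript assembly (scaffold Nitab4.5_0195359, 259 to 1470, plus strand), ranked 3 and 2 in S-OE2-1 and S-OE2-2. It had 8139 and 6857 CPM in S-OE2, against 25498 and 15276 CPM in S-WT, a log2 fold change of -1.41 (SE 0.22, adjusted p = 0.00958), and did not pass with the 4 salt libraries alone.

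**Figure D3:**
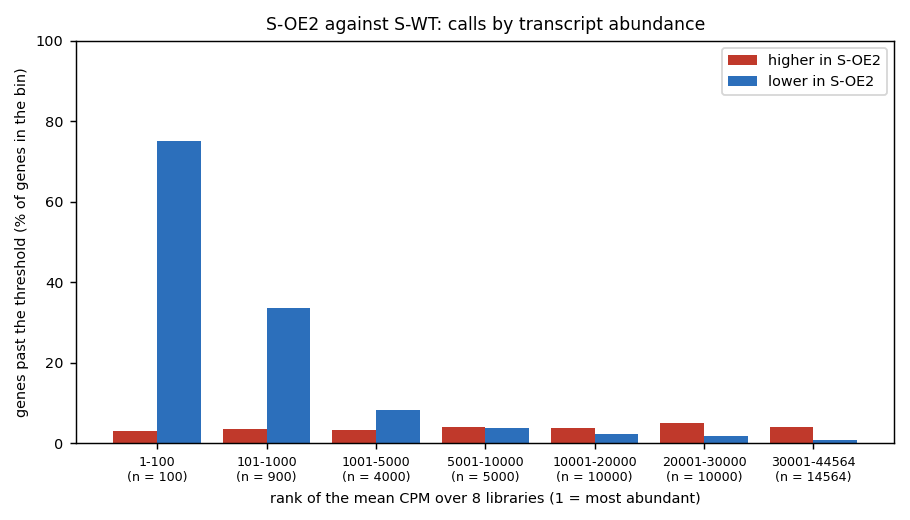
Percentage of genes called higher (red) or lower (blue) in S-OE2, relative to S-WT, in 7 ranges of abundance ranked by mean CPM over the 8 libraries. Lower genes made up 75% of the 100 most abundant genes and 0.748% of the least abundant range.

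Of the 12 defense genes that the study names with identifiers, 11 rose in S-OE2 and *PR1a* did not pass the threshold, where 4.17% of all genes were called higher. The list had a median of 4.32 (log2 fold change), against 0.0077 over all genes, and in all 12 both S-OE2 libraries were above both S-WT libraries, as in 22.0% of all genes tested. These genes, apart from *NRP* and *HSR203J*, were picked by the study from the same libraries, so the count is not independent evidence of direction. By RT-qPCR the study reported the listed genes, *PR1a* included, as higher in salt-stressed overexpressing leaves.

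Both markers of the hypersensitive response, a rapid local cell death of infected tissue, rose. *NRP* (Nitab4.5_0000798g0120), which encodes an asparagine-rich protein, had 373 and 243 CPM in S-OE2, against 50.2 and 57.4 CPM in S-WT. Its log2 fold change was 2.53 (SE 0.29, adjusted p = 0.00448). *HSR203J* (Nitab4.5_0002719g0120), which encodes a serine hydrolase of the esterase family, had 68.9 and 70.3 CPM in S-OE2, against 11.8 and 15.4 CPM in S-WT. Its log2 fold change was 2.37 (SE 0.24, adjusted p = 0.00392). For both genes the experiments gave like ratios, at 7.44-fold and 4.24-fold for *NRP* and 5.84-fold and 4.57-fold for *HSR203J* in Experiments 1 and 2. In FPKM, *NRP* ranked 423 and 493 in S-OE2, against 4043 and 3140 in S-WT.

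The 6 *PR* genes had the largest changes of the list. Together they took 2.52% and 1.86% of all counts in S-OE2, against 0.0593% and 0.00085% in S-WT, and at most 0.00109% in any C-OE2 or C-WT library. PR1 proteins are small secreted proteins that bind sterols and serve as markers of salicylic acid signalling. *PR1a* (Nitab4.5_0003771g0010) had 7664 and 5054 CPM in S-OE2, against 184 and 0.646 CPM in S-WT, a log2 fold change of 6.72 (SE 1.87, adjusted p = 0.0650). *PR1b* (Nitab4.5_0005400g0020) had 2852 and 1877 CPM in S-OE2, against 64.0 and 0 CPM in S-WT, and rose by 7.68 (SE 1.75, adjusted p = 0.0328). *PR1c* (Nitab4.5_0004861g0040) had 515 and 350 CPM in S-OE2, against 11.7 and 0 CPM in S-WT, and rose by 7.32 (SE 1.28, adjusted p = 0.0164). The 3 genes thus kept the same order of CPM in both S-OE2 libraries, and S-WT-1 and S-WT-2 were far apart. They belong to 1 family, and how reads matching several members were counted is not given in the sources used here, so the separate values are uncertain.

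The other 3 *PR* genes encode a chitinase, which cleaves the chitin of fungal walls, and 2 thaumatin-like proteins. *PR-Q* (Nitab4.5_0003207g0080), the chitinase, had 7146 and 3985 CPM in S-OE2, against 286 and 4.37 CPM in S-WT, and rose by 5.75 (SE 1.37, adjusted p = 0.0381). The thaumatin-like *PR-R* major (Nitab4.5_0000360g0100) had 2502 and 1693 CPM in S-OE2, against 78.1 and 1.67 CPM in S-WT, and rose by 6.16 (SE 1.28, adjusted p = 0.0241). *PR-R* minor (Nitab4.5_0004097g0050) had 1075 and 598 CPM in S-OE2, against 27.9 and 0.608 CPM in S-WT, and rose by 6.77 (SE 1.04, adjusted p = 0.00924). By FPKM, *PR-Q*, *PR1b* and *PR-R* major were among the 24 most abundant transcripts of both S-OE2 libraries.

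The 2 wild-type libraries gave very different denominators for these 6 genes. S-WT-1 held between 1.59 and 2.84% of the counts of S-OE2-1, whereas S-WT-2 held between 0 and 0.0881% of those of S-OE2-2. In Experiment 2 the level of *PR1b* in S-OE2-2 was at least 16470-fold higher, and that of *PR1c* at least 3072-fold higher, than the floor of 3 counts in S-WT-2. In Experiment 1 the ratios of the same genes were 44.5-fold and 43.9-fold. S-WT-1 had 0 counts of Nitab4.5_0007367g0040, a gene with 16514 counts in S-OE2-1 that is described further on. The cause of the difference between S-WT-1 and S-WT-2 was not tested. Without S-WT-1 the median log2 fold change of the 12 defense genes was 7.20 and without S-WT-2 it was 3.45, and all 12 passed the threshold in either case. With DESeq2 *PR1b* and *PR1c* did not pass, without S-OE2-1 *PR-Q* and *PR-R* major did not, and without either C-OE2 library *PR1b* and *PR-Q* did not. *PR1b* did not pass with the 4 salt libraries alone.

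**Figure D4:**
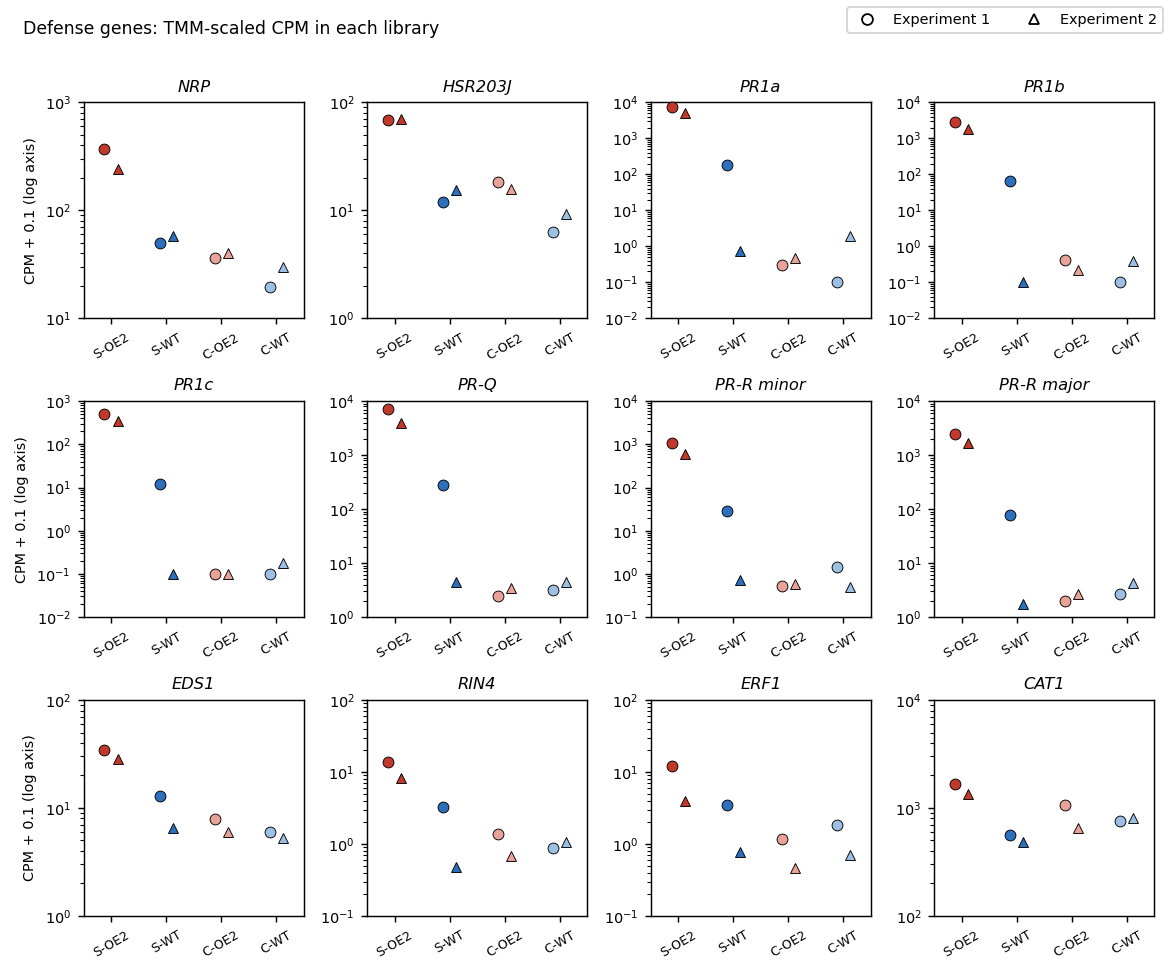
CPM (plus 0.1, log axis) of the 12 defense-related genes in each library, with S-OE2, S-WT, C-OE2 and C-WT from left to right, circles for Experiment 1 and triangles for Experiment 2. The S-OE2 libraries are the highest in every panel, and for the 6 *PR* genes S-WT-1 lies between S-OE2 and the other 5 libraries.

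The signalling genes of the list rose by smaller factors. *EDS1* (Nitab4.5_0002101g0050), a lipase-like protein that relays signals from immune receptors to salicylic acid, had 34.4 and 28.1 CPM in S-OE2, against 12.8 and 6.38 CPM in S-WT, and rose by 1.76 (SE 0.25, adjusted p = 0.00768). *RIN4* (Nitab4.5_0003020g0010), known in Arabidopsis as a membrane protein guarded by immune receptors, had 13.6 and 8.09 CPM in S-OE2, against 3.13 and 0.380 CPM in S-WT, and rose by 2.88 (SE 0.56, adjusted p = 0.0195). *ERF1* (Nitab4.5_0010541g0010), a transcription factor of the ethylene and jasmonate responses, had 12.1 and 3.85 CPM in S-OE2, against 3.42 and 0.684 CPM in S-WT, and rose by 2.08 (SE 0.32, adjusted p = 0.00936). S-OE2-2 lay only slightly above S-WT-1 for *ERF1*, and the groups were separated mainly within each experiment. *RIN4* did not pass without either S-OE2 library and *ERF1* did not pass without S-OE2-1. *CAT1* (Nitab4.5_0009821g0010), a catalase, which breaks down hydrogen peroxide, had 1653 and 1340 CPM in S-OE2, against 560 and 479 CPM in S-WT. It rose by 1.52 (SE 0.23, adjusted p = 0.00936), with ratios of 2.95-fold and 2.80-fold, and ranked 99 and 85 by FPKM in S-OE2, against 456 and 388 in S-WT.

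The 12 photosynthesis genes that the study names with identifiers all fell in S-OE2, where 3.2% of all genes and 75% of the 100 most abundant genes were lower. Their median log2 fold change was -1.28, close to that of the 100 most abundant genes, and was -1.36 in Experiment 1 and -1.17 in Experiment 2. Several of the 12, among them *Lhcb4*, *GAPA* and *Fd*, are themselves among those 100, so these sets are not independent. They too were picked by the study from the same libraries, so their count is not independent evidence. The study also reported them as lower by RT-qPCR in salt-stressed overexpressing leaves than in salt-stressed wild-type leaves. In a pooled leaf sample, fewer photosynthetic cells and less of these mRNAs per cell cannot be told apart. Together the 12 genes took 1.40% and 1.14% of all counts in S-OE2, against 2.94% and 2.05% in S-WT.

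The photosystem I subunits, which hold and serve the complex that reduces ferredoxin, fell by similar amounts. *PsaH* (Nitab4.5_0000351g0060), a subunit near the docking site of antenna proteins, had 234 and 132 CPM in S-OE2, against 693 and 340 CPM in S-WT, with a log2 fold change of -1.46 (SE 0.19, adjusted p = 0.00654). *PsaE* (Nitab4.5_0000385g0230), on the stromal side, had 465 and 343 CPM in S-OE2, against 1242 and 815 CPM in S-WT, with a log2 fold change of -1.33 (SE 0.21, adjusted p = 0.00968). *PsaD* (Nitab4.5_0014875g0010), the subunit that docks ferredoxin, had 1089 and 778 CPM in S-OE2, against 2767 and 1788 CPM in S-WT, with a log2 fold change of -1.27 (SE 0.20, adjusted p = 0.00938). No S-OE2 value reached a S-WT value for these 3 genes, as for 19.8% of all genes tested.

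The photosystem II genes encode subunits of the complex that oxidises water. *OEE1* (Nitab4.5_0000108g0110), the manganese-stabilising protein of the oxygen-evolving complex, had 1398 and 794 CPM in S-OE2, against 4085 and 1863 CPM in S-WT, with a log2 fold change of -1.39 (SE 0.20, adjusted p = 0.00795). *PsbQ* (Nitab4.5_0002345g0070), another extrinsic protein of that complex, had 1510 and 1061 CPM in S-OE2, against 4475 and 2333 CPM in S-WT, with a log2 fold change of -1.36 (SE 0.22, adjusted p = 0.0103). *PsbX* (Nitab4.5_0000073g0060), a small membrane subunit, had 311 and 192 CPM in S-OE2, against 769 and 416 CPM in S-WT, with a log2 fold change of -1.21 (SE 0.19, adjusted p = 0.0103). Within Experiment 1 the CPM of these genes was 2.47 to 2.96 times lower in S-OE2, and within Experiment 2 it was 2.17 to 2.35 times lower.

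Among the antenna genes, whose proteins bind chlorophyll and pass light energy to the reaction centres, *Lhcb3* (Nitab4.5_0012832g0010) fell most of the 12. It had 625 and 51.4 CPM in S-OE2, against 3010 and 296 CPM in S-WT, with a log2 fold change of -2.37 (SE 0.34, adjusted p = 0.00795). Its level also differed between the experiments by more than between the genotypes, so that S-OE2-1 lay above S-WT-2, while within the experiments it was 4.82 and 5.77 times lower in S-OE2. *Lhca3* (Nitab4.5_0000923g0200), of the photosystem I antenna, had the same overlap, with 407 and 99.3 CPM in S-OE2, against 815 and 212 CPM in S-WT, and a log2 fold change of -1.05 (SE 0.20, adjusted p = 0.0168). *Lhcb4* (Nitab4.5_0011597g0020), of the photosystem II antenna, had 1978 and 1092 CPM in S-OE2, against 5105 and 2556 CPM in S-WT, and a log2 fold change of -1.30 (SE 0.20, adjusted p = 0.00977).

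The genes of electron transport, ATP synthesis and carbon fixation fell by about 1 on the log2 scale. *Fd* (Nitab4.5_0004129g0010), ferredoxin, the electron acceptor of photosystem I, had 2018 and 1613 CPM in S-OE2, against 4418 and 2814 CPM in S-WT, with a log2 fold change of -0.97 (SE 0.20, adjusted p = 0.0242). By FPKM it ranked 10 and 12 in S-OE2, against rank 5 in both S-WT libraries. The *F-ATPase delta subunit* (Nitab4.5_0006745g0030), part of the chloroplast ATP synthase, had 432 and 438 CPM in S-OE2, against 996 and 846 CPM in S-WT, with a log2 fold change of -1.07 (SE 0.22, adjusted p = 0.0217). *GAPA* (Nitab4.5_0010299g0040), a glyceraldehyde-3-phosphate dehydrogenase of the Calvin cycle, had 1632 and 1712 CPM in S-OE2, against 3908 and 3290 CPM in S-WT, with a log2 fold change of -1.09 (SE 0.21, adjusted p = 0.0194). All 3 lost the call without S-OE2-1 or without S-WT-1, *Lhca3* lost it without any single salt library and *PsbX* without S-OE2-1. *GAPA* and the *F-ATPase delta subunit* also lost it without S-WT-2, and *Fd* without either C-OE2 library and with total-count scaling. With the 4 salt libraries alone, *Fd* and *GAPA* did not pass.

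Of 4 cation transport genes, 2 rose, 1 fell and *CHX18* did not pass the threshold, where 7.38% of all genes were called in either direction. *NCX1* (Nitab4.5_0005404g0030), named as a Na+/Ca2+ exchanger, had 15.8 and 9.46 CPM in S-OE2, against 4.44 and 2.66 CPM in S-WT, and rose by 1.83 (SE 0.25, adjusted p = 0.00672), at 3.56-fold in both experiments. *CNGC1* (Nitab4.5_0000258g0120), a cyclic nucleotide-gated cation channel, had 21.4 and 27.4 CPM in S-OE2, against 3.33 and 0 CPM in S-WT, and rose by 4.65 (SE 1.01, adjusted p = 0.0275). Its call was lost without either C-OE2 library and with the 4 salt libraries alone, and as for the *PR* genes the lowest of the 4 values was that of S-WT-2. *CAX3* (Nitab4.5_0000102g0080), a vacuolar exchanger of calcium for protons, had 2.25 and 6.93 CPM in S-OE2, against 27.7 and 21.3 CPM in S-WT, and fell by 2.45 (SE 0.45, adjusted p = 0.0164). It was 12.3 times lower in Experiment 1 and 3.07 times lower in Experiment 2. *CHX18* (Nitab4.5_0006998g0030), a cation/proton exchanger, had only 82 and 38 counts in S-OE2, against 4 and 0 counts in S-WT (log2 fold change 4.40, SE 1.22, adjusted p = 0.0638). It passed with no filter, with total-count scaling and with the 4 salt libraries alone. These 4 genes were picked by the study from the same libraries. By RT-qPCR the study reported *CHX18*, *NCX1* and *CNGC1* as raised and *CAX3* as reduced in overexpressing leaves under salt stress.

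**Figure D5:**
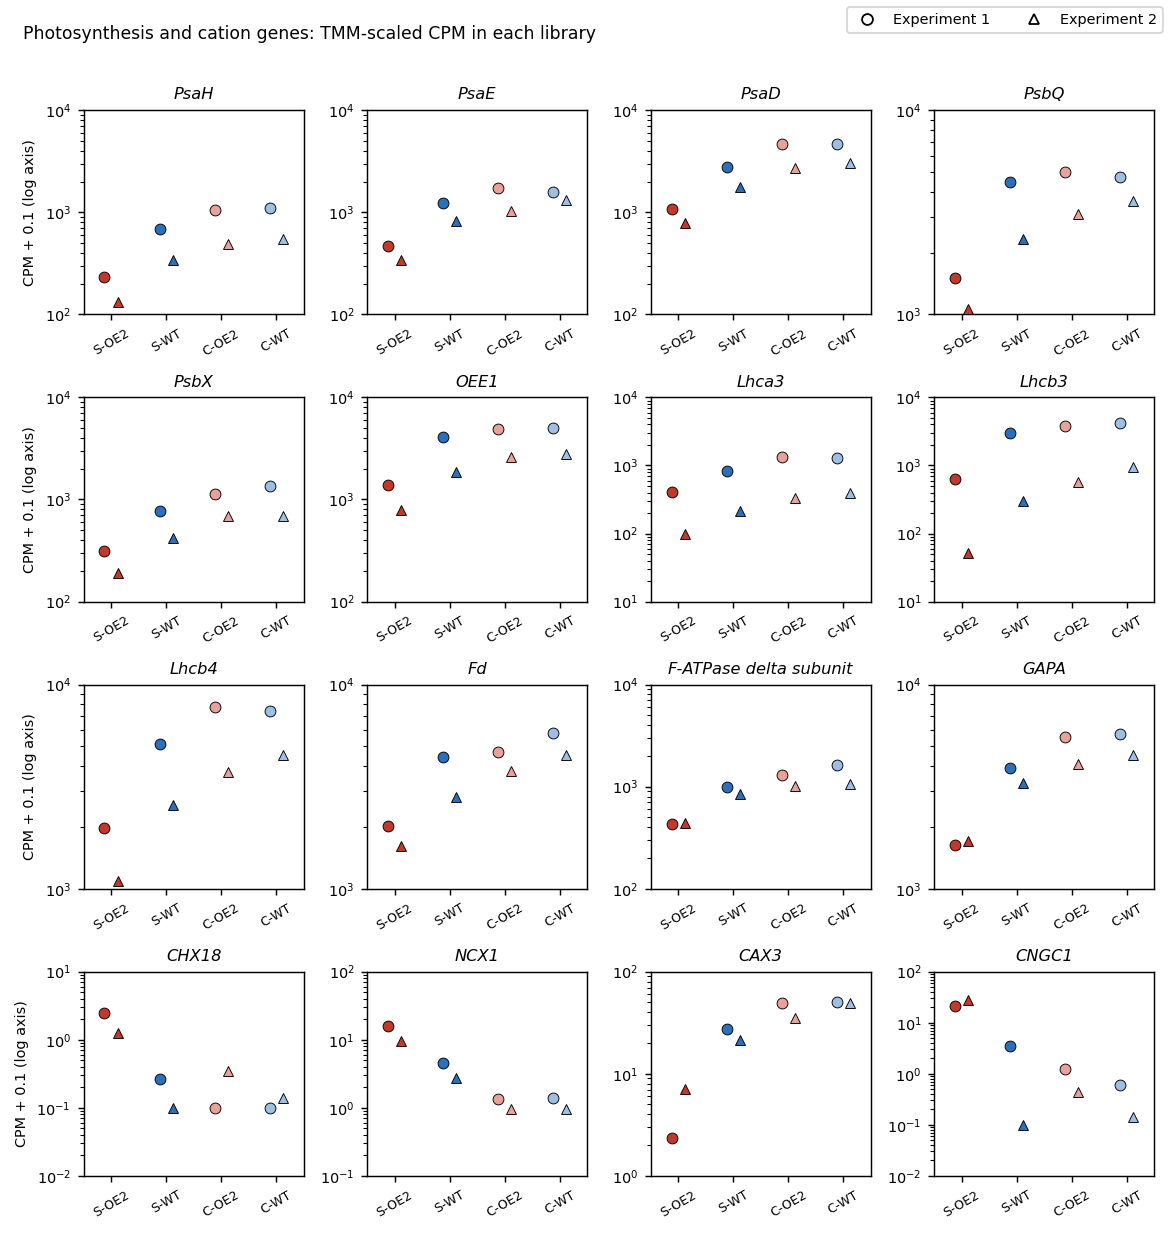
CPM (plus 0.1, log axis) of the 12 photosynthesis-related genes and, in the bottom row, 4 cation transport genes in each library, with S-OE2, S-WT, C-OE2 and C-WT from left to right, circles for Experiment 1 and triangles for Experiment 2. Within each experiment S-OE2 is the lowest of the 4 groups in every photosynthesis panel and for *CAX3*.

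The same genotypes without NaCl gave 7 higher and 9 lower genes in C-OE2 than in C-WT (0.0157% and 0.0202% of the genes tested). All 7 were also higher in S-OE2, and all 9 were also lower. None of the 28 listed genes was called there, the lowest adjusted p being 0.260 for *HSR203J*. The genes higher under NaCl had a median log2 fold change of 0.30 between C-OE2 and C-WT, the lower genes had -0.15 and all genes had 0.0053. The difference between both effects was tested as an interaction, which passed the threshold for 7 genes (0.0157%), 6 of them among the higher and 1 among the lower genes of S-OE2. For the listed genes it did not pass, with adjusted p between 0.133 and 0.713 for the defense genes, 0.154 and 0.474 for the photosynthesis genes and 0.158 and 0.911 for the cation genes. A larger effect under NaCl was thus not shown for any single listed gene.

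Some genes were counted in essentially only 1 genotype. With at least 100 counts in each S-OE2 library and at most 3 in each S-WT library, 11 genes were on in S-OE2, and with the reverse rule 2 were off. Nitab4.5_0007367g0040 (24441 to 26524 of its scaffold, plus strand) had the largest counts of the 11, with 16514 and 12311 in S-OE2, 13287 and 18196 in C-OE2 and 0 in all 4 WT libraries. Against a floor of 3 counts per library it was at least 3908-fold higher in Experiment 1 and at least 3298-fold higher in Experiment 2 under NaCl. Of the 2 that were off, a gene of the authors' transcript assembly (scaffold Nitab4.5_0004757, 35469 to 38763, plus strand) had the lowest log2 fold change. It had 0 counts in all 4 OE-2 libraries, against 325 and 349 counts in S-WT and 221 and 261 counts in C-WT. It was at least 153-fold lower in S-OE2 in Experiment 1 and at least 145-fold lower in Experiment 2. The other, Nitab4.5_0000212g0010, had larger counts in S-WT, at 1814 and 3513, against 2 and 3 in S-OE2. Without NaCl it had 0 counts in both C-OE2 libraries, against 498 and 173 in C-WT. For these genes the genotypes differed without NaCl too. Of the 11 genes, 4 had at most 3 counts in every C-OE2 and C-WT library and 2 met the same rule there, and both genes that were off met it there. With limits of 50 and 10 counts, 229 genes were on, of which 150 had at most 10 counts in every C-OE2 and C-WT library, and 8 were off.

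Among genes outside the lists, the largest gain in CPM belonged to Nitab4.5_0001581g0010 (70786 to 72152 of its scaffold, plus strand), for which no name was found. It had 7846 and 3994 CPM in S-OE2, against 424 and 47.1 CPM in S-WT, 12.2 and 17.1 CPM in C-OE2 and 9.58 and 17.0 CPM in C-WT. Its log2 fold change was 4.83 (SE 0.86, adjusted p = 0.0142), and the call was lost without S-OE2-1. Like the *PR* genes it was higher in S-WT-1 than in S-WT-2, and it ranked 4 and 10 by FPKM in S-OE2.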

How the data were processed

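RNA-seq was done on 8 pooled leaf libraries (2 experiments, 4 groups). Per the submitters' processing notes, the authors aligned reads with HISAT2 2.0.5, assembled transcripts with StringTie 1.3.3b and deposited raw counts per gene from featureCounts 1.5.0-p3, on the Nitab4.5 scaffolds for 81378 genes, 11878 of them from their assembly. Strand and multiple-mapping settings are not given in the sources used here. The authors also deposited FPKM values, which equal counts divided by gene length and by a library constant of 49.0% to 97.6% of the total count. FPKM was used for ranks only.

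Counts were filtered with filterByExpr, scaled by TMM and fitted with edgeR 4.0.16 (quasi-likelihood test, R 4.3.3, limma 3.58.1) over all 8 libraries with group and experiment as terms. The 4 groups share an estimate of the spread. P-values were adjusted by Benjamini-Hochberg over 44564 genes, with a threshold of 0.05. The SE was taken from the fit as |log2 fold change| over the root of the F statistic. CPM values are TMM-scaled and within-experiment log2 ratios use a prior count of 2. No filter on counts other than filterByExpr was applied. The floors (3 counts per library) cover counting error only. The p-values measure the spread between libraries pooled from 4 plants each.

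The experiment pairs the libraries because the study made its comparisons within independent experiments. Same-numbered libraries deviated together from their group means, with correlations across genes of 0.383 to 0.517 for the 6 pairs of groups. Named genes were the 28 with identifiers in the paper, and in each direction the gene with the largest fold change (at least 10 CPM in the higher group) and the gene with the largest CPM difference. The members and lists were chosen with earlier results of these data known. The reference table names none of the count table's identifiers. Alternatives were DESeq2 1.42.0, no filter, no experiment term, the 4 salt libraries alone, total-count and median-ratio scaling, a test against a minimum change of 1 (log2), calls per experiment and leaving out each library.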

Additional observations from a re-analysis of the deposited data

How the results depend on the processing

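With the replicate block (the experiment term) removed, 2 genes were higher and 3 lower, and 0 defense, 0 photosynthesis and 0 cation genes were called; the fit was by edgeR, 5607 genes had an unadjusted p under 0.05, and all 5 calls were among those of the fit with the term. Total-count scaling gave 3108 higher and 717 lower genes, a minimum log2 fold change of 1 gave 397 and 85 (with 4 defense, 1 photosynthesis and 0 cation genes) and a call in each experiment tested alone gave 947 and 371. In that last alternative 1 library was set against 1, with the spread of the fit over all 8 libraries, so each single library was assumed to vary like the others. DESeq2 gave 2122 and 2117, no filter 2600 and 1886, the 4 salt libraries alone 2117 and 1211, and median-ratio factors 1869 and 1402. With single libraries left out, the higher genes ranged between 805 and 1914, the lower genes between 296 and 1279, the defense genes between 7 and 12, the photosynthesis genes between 7 and 12 and the cation genes stayed at 3. The lowest counts came without S-OE2-1. Without either C-OE2 library, and with the 4 salt libraries alone, *CHX18* passed in place of *CNGC1*, so the steady cation count hides a change of members. Of the 100 most abundant genes, 83 were lower with DESeq2, 64 with the 4 salt libraries alone, 5 with a minimum log2 fold change of 1 and 0 without the block; this count, and the medians of the lists, were chosen after seeing the data. No named gene changed direction in any alternative. *PR1a* passed the threshold with no filter, with total-count scaling and without either C-WT or either S-WT library, and its adjusted p ranged between 0.000746 and 0.223 with single libraries left out. The causes of these changes were not tested. At 2 libraries per group, low counts in S-WT limit the fold changes of *PR1b*, *PR1c*, *CNGC1* and *CHX18*.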

Other observations

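The positions of called genes relative to each other on the scaffolds were counted, with no test. Among 31867 pairs of neighbouring tested genes, the gene after a higher one was also higher in 124 of 1270 cases (9.76%, against 3.97% over all pairs), and the gene after a lower one was also lower in 60 of 1042 cases (5.76%, against 3.28%). With annotated genes alone the shares were 9.99% and 6.40%. The 124 pairs lay on the same strand in 68 cases (54.8%, against 50.7% of all pairs), 2 of them overlapped, and no run of higher or of lower genes was longer than 4. Near-identical neighbouring copies share reads, and their part in these shares was not tested.

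Calls were also counted by the source of the gene, with no test of the difference. Of 6431 tested genes from the authors' transcript assembly, 163 were higher (2.53%) and 105 were lower (1.63%), against 1697 (4.45%) and 1323 (3.47%) of 38133 annotated genes.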
